A study of Mus musculus with 6 samples.

Results

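The insulin-like growth factor (IGF) system was examined in W4 cells, a line of mouse embryonic stem cells, after 16 days of neural differentiation. Its members were the ligand genes Igf1 and Igf2, the receptor genes Igf1r and Igf2r, and the binding protein genes Igfbp2, Igfbp3, Igfbp4, Igfbp5, Igfbp6 and Igfbp7, which make 10 of the 19938 genes measured. Each was read from its brightest probe set that carried that gene symbol alone, and each of the 10 had 1 such probe set. The members were chosen by their measured difference between valproate and control arrays, so that difference is described here and not tested. The lists of other genes were also chosen with earlier results of these data known. Their p-values come from the same arrays and are not independent of that choice. Valproate (VPA), an antiepileptic drug and histone deacetylase inhibitor that disturbs neural development, was given at 300 uM throughout differentiation to 3 cultures, and the 3 control cultures received its solvent, phosphate-buffered saline (PBS). All cultures came from the same line and grew on coated plates in a medium that already held insulin, B27, N2, basic fibroblast growth factor and laminin. RNA was hybridised to 1 whole-transcript array per culture, and the design text calls the cultures biological replicates.

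IGF1 and IGF2 are small secreted proteins, related to insulin, that promote growth and survival of many cells, neural progenitors and neurons among them. Both act mainly through the tyrosine kinase receptor IGF1R, whereas IGF2R carries IGF2 to the lysosome for breakdown. Secreted IGF-binding proteins hold the ligands in the tissue fluid, where they may block or prolong their action, and proteases release the ligands by cutting the binding proteins.

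Values are log2 signals, so a difference of 1 is a doubling of signal. The medians of the 6 arrays lay between 6.99 and 7.03. A level below 6.155, the 95th percentile of 1027 olfactory receptor genes, was not told apart from background. Between PBS arrays the median absolute difference over all genes was 0.06 to 0.066, and between VPA 2 and VPA 3 it was 0.073. VPA 1 stood apart from these, at 0.125 from VPA 2 and 0.132 from VPA 3, so results that rest on it are given with and without it. As to the neuronal label, 12 of 12 neuronal genes were above background in both groups, and of 10 pluripotency genes 8 were below it in both. Of markers of other cells, 13 of 14 for mesenchyme and 8 of 10 for astrocytes and radial glia were above background in both groups. Muscle had 6 of 12 and endothelium 5 of 10. For microglia and macrophages it was 3 of 12, for choroid plexus 4 of 9 and for endoderm and liver 4 of 10. Over all 19938 genes, 5728 were below background in both groups, so most genes were above it in at least 1 group. These counts alone do not show that a cell type was present.

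With VPA, both ligand transcripts and those of the binding proteins Igfbp3 and Igfbp4 were more than 2-fold higher, Igfbp5 was higher by less, and the receptor transcripts were level or slightly lower. The changes ran from -0.28 for Igf2r to 2.53 for Igf1 on the log2 scale. Of the 10 members 5 were higher and 2 were lower at an adjusted p under 0.05 (limma, Benjamini-Hochberg over all genes), where 13.6% of all genes were higher, 15.7% lower and 29.2% either. Those higher were Igf1, Igf2, Igfbp3, Igfbp4 and Igfbp5, and those lower were Igf2r and Igfbp6. Igfbp5 dropped out without any 1 of the PBS arrays, and Igfbp6 without PBS 2, PBS 3, VPA 2 or VPA 3. Without VPA 1 the counts were 5 and 3, with Igf1r added. The median change of the members was 0.30, and that of all genes was 0.0013. These counts describe members picked for this response and carry no further weight. On 6 members the VPA arrays all lay above the PBS arrays, and on 2 all lay below, while over all genes 20.2% and 23.8% did so, 44.0% in all.

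**Figure D1:**
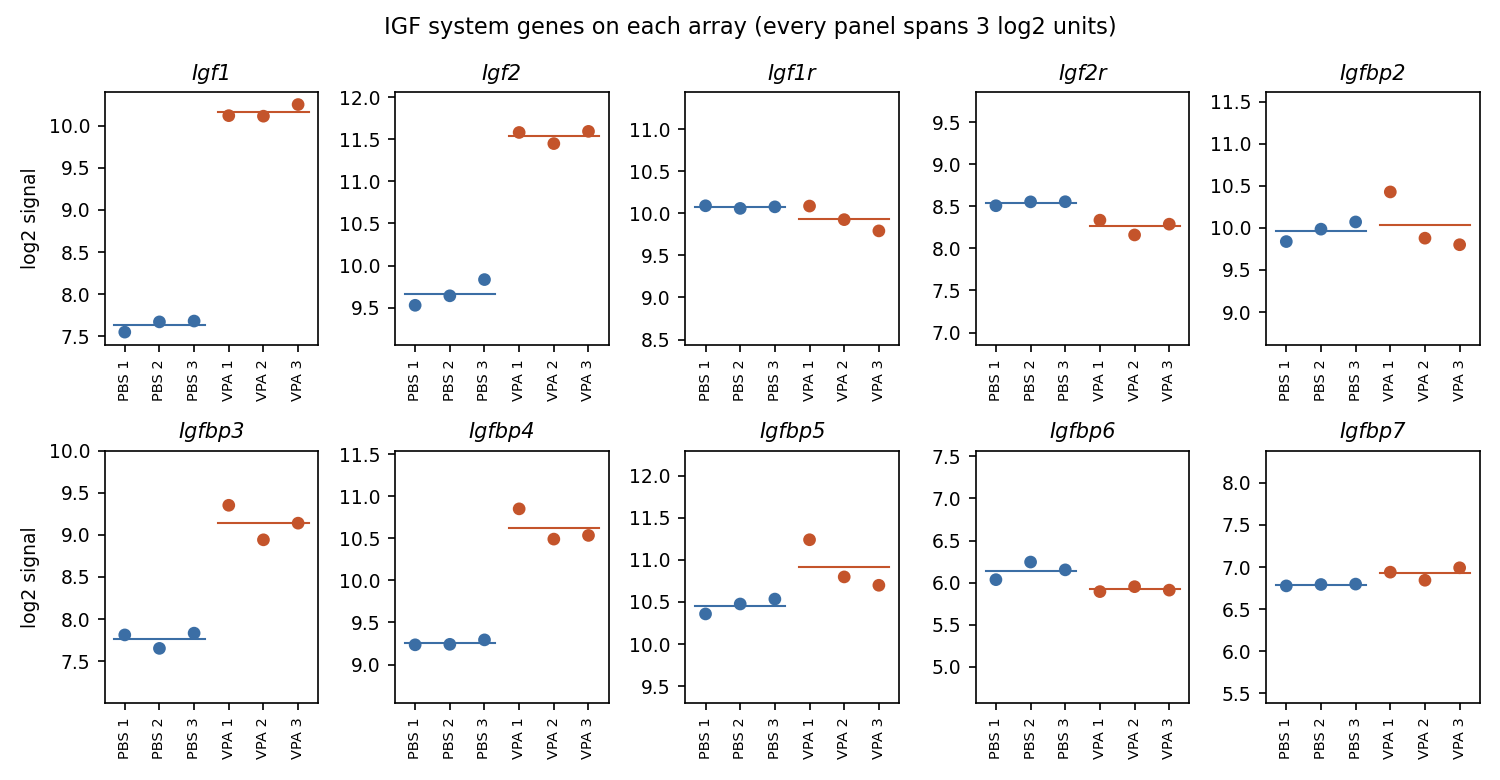
Log2 signal of the 10 members on each of the 6 arrays, with PBS in blue, VPA in orange and horizontal lines at the group means; each panel spans 3 log2 units and levels are not comparable between panels. Igf1, Igf2, Igfbp3 and Igfbp4 stand more than 1 unit higher on every VPA array, while Igfbp2 and Igfbp5 are highest on VPA 1.

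Igf1, the ligand that growth hormone induces in the liver and that many tissues also make locally, was at 7.55, 7.67 and 7.68 on the PBS arrays and at 10.12, 10.11 and 10.25 on the VPA arrays. The groups were far apart, and VPA 1 lay between or beside the other VPA arrays. The change was 2.53 (moderated standard error, SE, 0.07, n = 3 per group), a 5.77-fold higher signal, and ranked 8 among the rises of 19938 genes. Igf2, the main fetal IGF, which is imprinted and read from the paternal copy, was at 9.53, 9.64 and 9.83 with PBS and at 11.58, 11.45 and 11.59 with VPA. Every VPA array was again above every PBS array. Its change of 1.87 (SE 0.08) was a 3.66-fold higher signal and ranked 36 among all rises.

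The bases just before the start sites of the ligand genes and of the binding protein genes with the largest changes are shown because these members moved in the same direction. They come from RefSeq (build GRCm38.p6), whose table held all 10 members in 14 windows, since Igf2 had 4 starts and Igfbp2 had 2. Each stretch is the 150 bases before a start, read 5′ to 3′ on the gene's strand. Capitals mark motifs searched on both strands in the 250 bases before each start. These were the TATA-type motif TATAAA, its variant TATATA, the GC box motif GGGCGG and the E box motif CACGTG.
Igf1 at chr10:87860961-87861110, plus strand: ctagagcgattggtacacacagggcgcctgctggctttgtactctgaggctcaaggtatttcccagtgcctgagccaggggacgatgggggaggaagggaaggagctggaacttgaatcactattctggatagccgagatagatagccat
Igf2 at chr7:142657497-142657646, minus strand: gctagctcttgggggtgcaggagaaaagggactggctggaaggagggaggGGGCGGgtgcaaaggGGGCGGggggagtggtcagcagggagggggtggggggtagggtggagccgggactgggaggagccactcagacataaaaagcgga
Igfbp3 at chr11:7213924-7214073, minus strand: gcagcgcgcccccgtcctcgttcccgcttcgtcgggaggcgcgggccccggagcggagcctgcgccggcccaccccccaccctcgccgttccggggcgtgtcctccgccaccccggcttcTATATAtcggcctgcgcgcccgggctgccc
Igfbp4 at chr11:99041094-99041243, plus strand: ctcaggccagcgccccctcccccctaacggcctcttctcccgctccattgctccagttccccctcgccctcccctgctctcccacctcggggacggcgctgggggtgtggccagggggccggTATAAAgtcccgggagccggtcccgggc

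The 4 stretches did not share a motif among those searched. Igfbp4 had TATAAA beginning 28 bases before its start and Igfbp3 had TATATA at 30 bases, the usual place of a TATA box. Over all 32851 windows, 12.4% held TATAAA and 5.25% held TATATA on either strand. The Igf2 stretch had GGGCGG at 100 and 85 bases before the start, a motif found in 32.7% of all windows and in 6 of the 14 member windows. This stretch is 1 of 4 for Igf2 and was picked with the matches known. Of the others, 1 held GGGCGG, at 17 bases on the opposite strand, and 2 held none of the motifs. Which start was in use was not measured. The Igf1 window held none of the motifs. It had 5 CpG dinucleotides in 250 bases against 32 for Igfbp3 and 22 for Igfbp4, where the median window had 6. Such matches describe letters and show neither binding nor cause.

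Neither receptor transcript was higher with VPA. Igf1r, the tyrosine kinase receptor of both ligands, was at 10.09, 10.06 and 10.08 with PBS and at 10.09, 9.92 and 9.79 with VPA. VPA 1 was level with the PBS arrays while the other VPA arrays lay below them, and the groups overlapped. The change was -0.14 (SE 0.08), -0.22 (SE 0.06) without VPA 1 and -0.07 (SE 0.07) without VPA 3. Igf2r, which also sorts lysosomal enzymes by their mannose 6-phosphate tag, was at 8.51, 8.55 and 8.55 with PBS and at 8.33, 8.16 and 8.29 with VPA. All VPA arrays were lower, and the change of -0.28 (SE 0.06), a 1.21-fold lower signal, was the largest fall of the 10 members. The insulin receptor gene Insr, which is no member and was tested, changed by -0.20 (SE 0.06, limma adjusted p = 0.0229), and all 3 VPA arrays were lower. This call did not hold without PBS 1 (adjusted p = 0.0965), PBS 2 (0.065), PBS 3 (0.0658) or VPA 3 (0.0632), nor after quantile normalization (0.0612).

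Inside Igf2r starts Airn, a long non-coding RNA read against Igf2r from the paternal copy and known to silence Igf2r on that copy in many tissues. Airn belongs to a list of regulators that was chosen with earlier results of these data known. It was at 8.53, 8.37 and 8.44 with PBS and at 9.98, 9.75 and 9.69 with VPA. The groups were apart by more than 1 unit on the log2 scale, opposite in direction to Igf2r. Airn rose by 1.36 (SE 0.08, limma adjusted p = 9.26e-06), a 2.57-fold higher signal, with all 3 VPA arrays above all PBS arrays. Which parental copy was read cannot be told from these arrays, and a link between the Airn and Igf2r changes was not tested. The starts of this overlapping pair are shown with the same marks.
Igf2r at chr17:12769707-12769856, minus strand: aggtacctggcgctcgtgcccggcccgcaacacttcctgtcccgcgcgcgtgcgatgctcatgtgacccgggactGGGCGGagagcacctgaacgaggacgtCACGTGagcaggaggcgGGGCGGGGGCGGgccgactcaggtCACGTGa
Airn at chr17:12741161-12741310, plus strand: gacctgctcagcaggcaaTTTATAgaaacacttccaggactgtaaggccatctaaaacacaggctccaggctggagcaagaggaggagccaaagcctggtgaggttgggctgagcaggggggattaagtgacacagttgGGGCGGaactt
The Igf2r window held 27 CpG dinucleotides, 3 GC boxes and CACGTG at 48 and 7 bases before the start, the latter motif being present in 6.02% of all windows. The Airn window held 2 CpG dinucleotides and GGGCGG at 11 bases, and its first capitals are the TATA-type motif on the opposite strand.

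Among the binding proteins, Igfbp3 and Igfbp4 had the largest changes. Igfbp3, the main carrier of IGFs in blood, was at 7.81, 7.65 and 7.83 with PBS and at 9.35, 8.94 and 9.14 with VPA. The groups were apart by more than 1 unit. Its change was 1.38 (SE 0.10), a 2.60-fold higher signal, and 1.27 without VPA 1. Igfbp4, which mostly blocks IGF action until the protease PAPP-A cuts it, was at 9.23, 9.24 and 9.29 with PBS and at 10.85, 10.49 and 10.53 with VPA. The PBS arrays were nearly equal and VPA 1 was the highest array. Its change was 1.37 (SE 0.09), a 2.58-fold higher signal, and 1.26 without VPA 1. Igfbp5, which binds extracellular matrix as well as IGFs, was at 10.36, 10.48 and 10.53 with PBS and at 11.24, 10.80 and 10.70 with VPA. All VPA arrays were higher, but most of the difference lay in VPA 1. The change of 0.46 (SE 0.13) was 0.29 (SE 0.07) without that array.

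The remaining binding proteins had small or unsteady differences. Igfbp2, abundant in the developing brain and its fluid, was at 9.84, 9.98 and 10.07 with PBS and at 10.43, 9.88 and 9.80 with VPA. VPA 1 was above every PBS array, VPA 2 and VPA 3 were within or just below their range, and the change of 0.07 (SE 0.15) turned to -0.13 (SE 0.07) without VPA 1. It was also negative, at -0.08, with array weights. Igfbp6, which prefers IGF2, had means of 6.14 ± 0.10 with PBS and 5.92 ± 0.03 with VPA (SD, n = 3), both below the background level of 6.155, so its difference of -0.22 (SE 0.07) was not told apart from background. Igfbp7, which binds IGFs weakly and is found in vessel walls, was at 6.78, 6.79 and 6.80 with PBS and at 6.94, 6.84 and 6.99 with VPA, a change of 0.14 (SE 0.06). The groups did not overlap, but the means of 6.79 and 6.92 were not far above background.

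**Figure D2:**
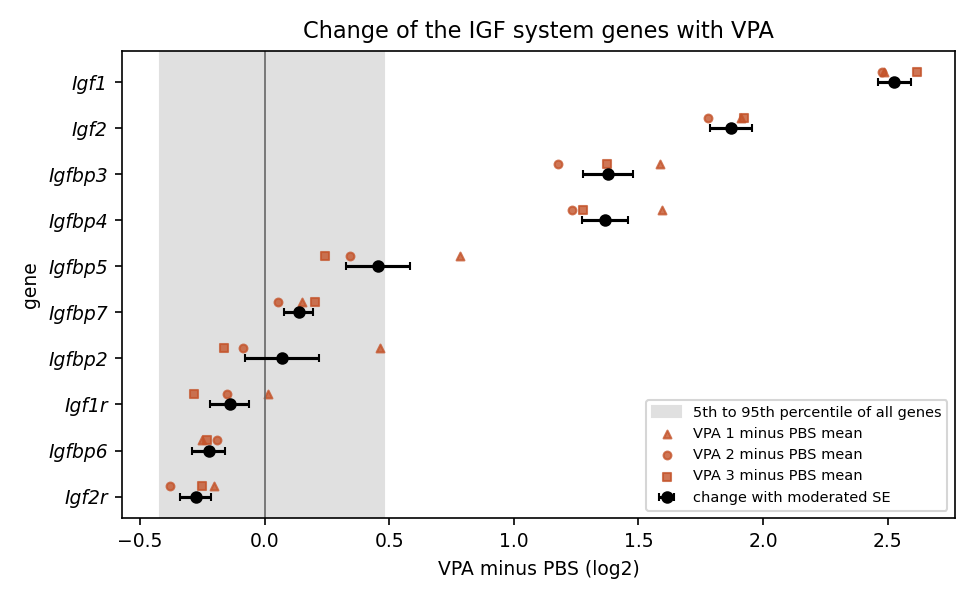
Change of each member, VPA minus PBS (log2), as black points with the moderated SE; orange symbols give each VPA array minus the PBS mean, and the grey band spans the 5th to 95th percentile of all genes (-0.42 to 0.48). Igf1, Igf2, Igfbp3 and Igfbp4 lie beyond the band, and VPA 1 lies to the right for Igfbp2, Igfbp3, Igfbp4 and Igfbp5.

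Several binding protein genes were higher on VPA 1 than on its replicates. VPA 1 exceeded the mean of VPA 2 and VPA 3 by 0.59 for Igfbp2, and 0.496% of all genes had a larger excess. For Igfbp5 the excess was 0.49, with 1.10% of genes above it. It was 0.34 for Igfbp4, 0.31 for Igfbp3 and 0.23 for Igf1r. Igf1 and Igf2 differed by only -0.06 and 0.06 between VPA 1 and the others. Within the VPA group the spread was wider than within the PBS group for 8 of the 10 members. The same count over all genes was not made. VPA 1 also stood apart over all genes, at 0.125 and 0.132 from its replicates, so no trait of the members is read from that count. Igfbp2 and Igfbp5, which had the largest excess on VPA 1, are neighbours on chromosome 1 with no other measured gene between them.

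The genes beside the members were read to see whether the changes extended along the chromosome. For Igf2, Igf2r and the binding protein genes, 14 non-member neighbours were measured, of which 4 were higher, 1 was lower and 9 did not pass (limma adjusted p under 0.05), against 13.6% and 15.7% of all genes. Besides Airn, the gene Tns3 next to Igfbp3, which encodes the adhesion protein tensin 3, rose by 0.65 (SE 0.12, limma adjusted p = 0.00341), with 3 of 3 VPA arrays higher; it was at 8.16, 8.29 and 8.28 with PBS and 9.19, 8.77 and 8.70 with VPA. Igfbp1, on the other side of Igfbp3, had means of 5.91 and 5.79, both below background. Top2a, the proliferation-linked topoisomerase gene next to Igfbp4, changed by 0.41 (SE 0.09, limma adjusted p = 0.011), a call lost without PBS 2 (0.051) and with the mean of its probe sets (0.0601). Csad, next to Igfbp6, changed by -0.21 (SE 0.06, limma adjusted p = 0.0253), a call lost without PBS 1 (0.0968), PBS 2 (0.0837), PBS 3 (0.0664), VPA 2 (0.064) or VPA 3 (0.0761). Slc22a2, an organic cation transporter gene of the same imprinted cluster as Igf2r, differed by 0.19 (limma adjusted p = 0.0459), but both means, 5.47 and 5.66, were below background, and the call held under only 4 of 12 alternatives. It was lost without PBS 1 (0.113), PBS 2 (0.163), PBS 3 (0.103), VPA 2 (0.0639) or VPA 3 (0.13). The genes Rpl37a, Tnp1, Tns4, Spryd3, Polr2b and Pea15b were not called. Igf1 and Igf1r, whose neighbours the naming rule did not cover, had 4 measured neighbours, of which 0 were higher and 1 was lower. With these, 4 of 18 were higher and 2 lower. The lower gene was Synm, an intermediate filament gene next to Igf1r named after its values were seen, which changed by -0.20 (SE 0.05, limma adjusted p = 0.0247). That call was lost without PBS 1 (0.0713), PBS 2 (0.081), PBS 3 (0.0967) or VPA 2 (0.087).

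At Igf2 the measured neighbours did not share the size of its change. H19, a gene of the regulator list, had no probe set and was not measured. Mrpl23, a mitochondrial ribosomal protein gene, had means of 10.38 with PBS and 10.38 with VPA (change -0.0036, SE 0.07, limma adjusted p = 0.978). Mir483, a microRNA gene that lies inside Igf2, was at 7.52, 7.53 and 7.52 with PBS and at 7.37, 8.01 and 7.82 with VPA. VPA 1 was below the PBS arrays while VPA 2 and VPA 3 were above them. Its change was 0.21 (SE 0.14, limma adjusted p = 0.294) over all arrays and 0.39 (adjusted p = 0.00184) without VPA 1, and 0.39 (0.00354) with array weights, so the call turns on that array. Without VPA 2 the change was 0.07. Ins2, the insulin gene near Igf2, had means of 5.99 and 6.08, below background in both groups. At Igf1, the transcript Igf1os on the opposite strand had means of 4.67 and 4.76, also below background.

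The genes with profiles most like those of Igf1, Igf2 and Igf2r over the 6 arrays were found among all genes. Likeness was the root-mean-square difference in log2 signal after each profile was centred on its PBS mean. For Igf1 the nearest were Crabp2, a retinoic acid carrier gene, at 0.10, then Slc38a4 at 0.13, the matrix glycoprotein gene Efemp1 at 0.15, Moxd1 at 0.16 and the matrix proteoglycan gene Ogn at 0.17. For Igf2 they were Fibin at 0.07, the collagen receptor gene Ddr2 at 0.08, the non-coding Dnm3os at 0.08, the mesenchymal transcription factor gene Prrx1 at 0.09 and the endocytic adaptor gene Dab2 at 0.10. Prrx1, for example, was at 8.10, 8.06 and 8.25 with PBS and at 9.94, 10.06 and 10.11 with VPA. Within a distance of 0.1, Igf1 had 1 gene and Igf2 had 5, but Igf2r had 1738. Its nearest were Coq5, Hectd2, Rad52, Zfp46 and Uck1, at 0.022 to 0.025. The likeness mostly reflects the size of the change with VPA. For Slc38a4, Ogn, Fibin and Dnm3os the PBS means of 5.98, 4.53, 5.51 and 5.91 were below background. The sizes of their changes are therefore less certain.

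Other genes of the pathway, taken from 5 lists, gave 22 higher and 5 lower of 89 measured (limma, adjusted p under 0.05), against 13.6% and 15.7% of all genes. Their median change was 0.05. Without VPA 1 the counts were 25 and 12, and the lower count was 3 without PBS 3 and 3 without VPA 3. None of these lists was tested as a set.

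**Figure D3:**
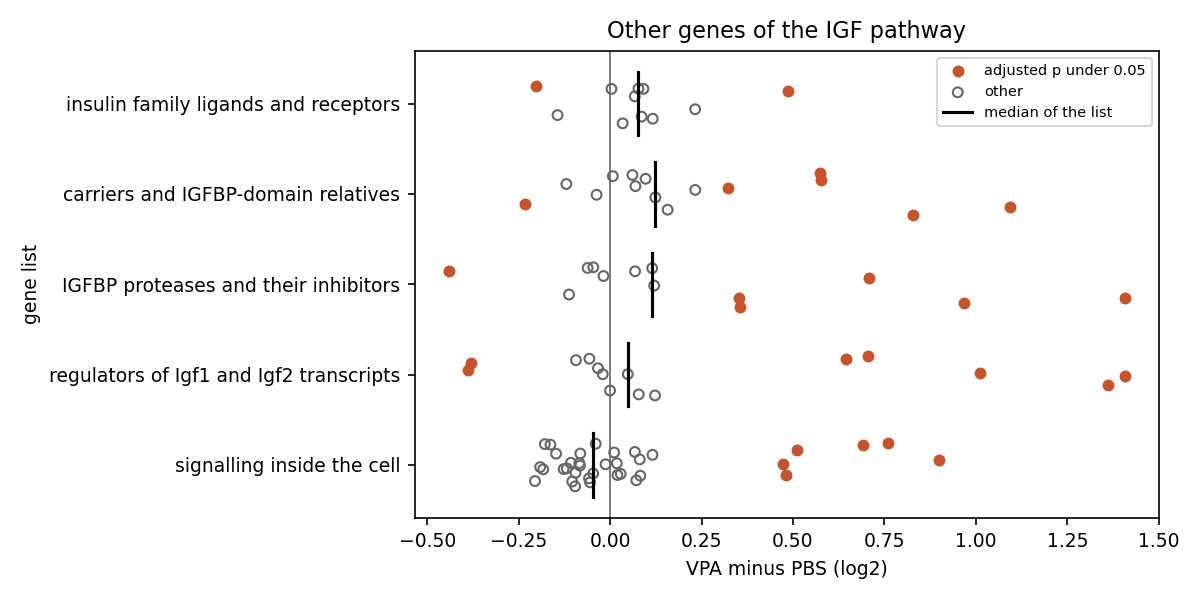
Change with VPA (log2) of 89 other genes of the IGF pathway in 5 lists, with filled points for genes at an adjusted p under 0.05, open points for the rest and a black bar at each list's median. The list medians lie between -0.05 and 0.12, and the largest changes are those of Adamts1, Hmga2 and Airn.

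Of the insulin and relaxin family, 1 of 11 measured genes rose and 1 fell (Insr, above), with 6 below background in both groups. Insl6, an insulin-like peptide gene best known from the testis, had a PBS mean of 5.81, below background, and a VPA mean of 6.29. Its measured difference was 0.49 (SE 0.09, limma adjusted p = 0.00318), with 3 of 3 VPA arrays higher.

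Among carriers and proteins with an IGFBP-type domain, 5 of 15 rose and 1 fell, with a median of 0.12. Ccn1, a matrix-associated signalling protein gene of the CCN family, had means of 7.02 ± 0.05 with PBS and 8.11 ± 0.09 with VPA (SD, n = 3). It rose by 1.09 (SE 0.06, limma adjusted p = 7.32e-06). Its relatives Ccn3, Ccn4 and Ccn2 rose by 0.58 (SE 0.09), 0.57 (SE 0.10) and 0.32 (SE 0.07), the first pair from PBS means of 5.93 and 5.92, below background. Htra1, a secreted serine protease gene that cuts matrix proteins and IGFBPs, rose by 0.83 (SE 0.09, limma adjusted p = 0.00017). Igfbpl1, an IGFBP-like gene of immature neurons named here after its values were seen, changed by -0.23 (SE 0.06, limma adjusted p = 0.0171), a call lost without PBS 1 (0.0694), PBS 3 (0.0671), VPA 2 (0.0606) or VPA 3 (0.0522).

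Proteases that act on binding proteins, with their inhibitors, gave 5 rises and 1 fall in 13 genes (median 0.12). Adamts1, a secreted metalloprotease gene, was at 7.32, 7.47 and 7.64 with PBS and at 8.93, 8.89 and 8.83 with VPA, and rose by 1.41 (SE 0.08, limma adjusted p = 7.3e-06). Mmp2, a gelatin-cutting metalloprotease gene, rose by 0.97 (SE 0.07), and the plasminogen activator gene Plat by 0.36 (SE 0.09, limma adjusted p = 0.0178), a call lost without PBS 1 (0.0802). Plau differed by 0.71 between means of 4.95 and 5.66, both below background. Pappa, whose product PAPP-A cuts IGFBP4, had means of 7.27 and 7.25 (change -0.02, SE 0.06, limma adjusted p = 0.863). The genes of the stanniocalcins, which inhibit PAPP-A, moved in opposite directions. Stc2 changed by -0.44 (SE 0.08, limma adjusted p = 0.00402) and Stc1 rose by 0.35 (SE 0.05, limma adjusted p = 0.00137). Pappa and Stc1 are named after their values were seen.

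The list of regulators of the Igf1 and Igf2 transcripts included some of the largest changes among the 89 pathway genes. Of its 15 genes 5 were higher and 2 lower, and these counts were the same without any 1 array. The 5 include Airn (above), whose known target is Igf2r and not Igf1 or Igf2. Hmga2, a chromatin protein gene of fetal tissue, was at 7.72, 7.66 and 7.52 with PBS and at 9.13, 8.96 and 9.04 with VPA. It rose by 1.41 (SE 0.07, limma adjusted p = 3.46e-06). Plagl1, an imprinted zinc finger gene whose product activates Igf2 and other imprinted genes, was at 9.75, 9.83 and 9.80 with PBS and at 10.92, 10.69 and 10.80 with VPA, a rise of 1.01 (SE 0.07, limma adjusted p = 1.7e-05). Igf2bp1, whose product binds Igf2 mRNA, rose by 0.70 (SE 0.07, limma adjusted p = 0.000136). Its relative Igf2bp3 differed by 0.12 (SE 0.05, limma adjusted p = 0.122). The growth hormone receptor gene Ghr rose by 0.65 (SE 0.08, limma adjusted p = 0.000295), whereas Jak2, the kinase bound to that receptor, changed by -0.38 (SE 0.07, limma adjusted p = 0.00364). Zfp57, a zinc finger gene that maintains imprints, changed by -0.39 (SE 0.05, limma adjusted p = 0.000752). Igf2bp3, Jak2 and Zfp57 are named after their values were seen.

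Genes of signalling inside the cell mostly stayed near 0, with 6 of 35 higher, 0 lower and a median of -0.05. In limma's test 5 genes were lower at an unadjusted p under 0.05, and the count of lower genes after adjustment was 7 without VPA 1. Phlda1, which encodes a pleckstrin-domain protein, was at 7.74, 7.74 and 7.60 with PBS and at 8.87, 8.45 and 8.46 with VPA, and rose by 0.90 (SE 0.11, limma adjusted p = 0.000376). Foxo1, a transcription factor gene whose protein insulin and IGF signals keep out of the nucleus, rose by 0.76 (SE 0.10, limma adjusted p = 0.000526). The adaptor genes Shc1 and Gab1 rose by 0.69 (SE 0.07) and 0.51 (SE 0.07), and Eif4ebp1, a brake on translation that mTOR releases, by 0.48 (SE 0.09). Irs1, the docking protein gene of the IGF1 and insulin receptors, was the sixth and is named after its values were seen. It rose by 0.47 (SE 0.15, limma adjusted p = 0.0394), and VPA 1 exceeded the mean of VPA 2 and VPA 3 by 0.61. Without VPA 1 the change was 0.27 (SE 0.06, adjusted p = 0.0058). The call was lost without PBS 1 (0.132), PBS 2 (0.0828) or PBS 3 (0.0937) and with the mean of its probe sets (0.0522).

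Markers of mesenchyme, muscle and endothelium were higher with VPA, as the ligands were, and in bulk RNA more cells of a type and more RNA per cell cannot be told apart. Of 14 mesenchyme and fibroblast markers 13 rose and 0 fell, with a median of 1.19. Their summed linear signal was 3393 to 3953 with PBS and 11314 to 12330 with VPA, a 3.21-fold higher mean, and only Mfap5 was below background in both groups. Of 12 muscle markers 8 rose and 0 fell, with sums of 1059 to 1107 and 2595 to 3850, and Myf5, Myf6 and Tnnt1 were below background in both groups. PBS means of 6 muscle markers were below background, among them those of Myh3, Des and Chrna1, which rose. The difference in the muscle sum lay mostly in Actc1 (change 2.93) and Myl4 (change 2.22). Myod1, above background in both groups, changed by 0.03 and was not called. Of 10 endothelial markers 9 rose and 0 fell, with sums of 799.9 to 856.4 and 1291 to 1473, and Tek was below background in both groups. PBS means of 5 endothelial markers were below background, those of Tek and of Cdh5, Tie1, Emcn and Esam, which rose. The part of these cell types in the IGF changes was not tested.

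The other marker lists had at most 1 rise each. Of 12 microglia and macrophage markers, 0 passed in limma's test in either direction (1 higher and 1 lower at an unadjusted p under 0.05), and 9, among them Csf1r, Aif1, Ptprc, Itgam and P2ry12, were below background in both groups; without VPA 1, 1 was higher and 1 lower. Their sums were 860.0 to 898.6 with PBS and 847.4 to 871.4 with VPA. Choroid plexus markers, from a tissue known to secrete IGF2, gave 0 rises and 3 falls in 9 genes, with a median of -0.04. Choroid plexus sums were 3385 to 4015 and 1550 to 1887. The difference lay mostly in Otx2 (change -1.24, SE 0.11) and Ttr (change -1.90, SE 0.17), so the sum does not stand for the whole list. Folr1 changed by -0.24 and Slc4a5 by 0.09 (not called), and Kl, Clic6, Kcnj13 and Cldn2 were below background in both groups. Of 10 endoderm and liver markers 0 rose and 1 fell, and 5, Afp and Alb among them, were below background in both groups. Neuronal markers gave 1 rise and 9 falls in 12 genes, with sums of 27942 to 29250 and 24381 to 24742, and none was below background. Their count of falls was 5 without PBS 2 and 6 without PBS 1. Astrocyte and radial glia markers gave 1 rise and 3 falls in 10, with sums of 15040 to 15253 and 14151 to 15182, and Aqp4 and S100b were below background in both groups.

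**Figure D4:**
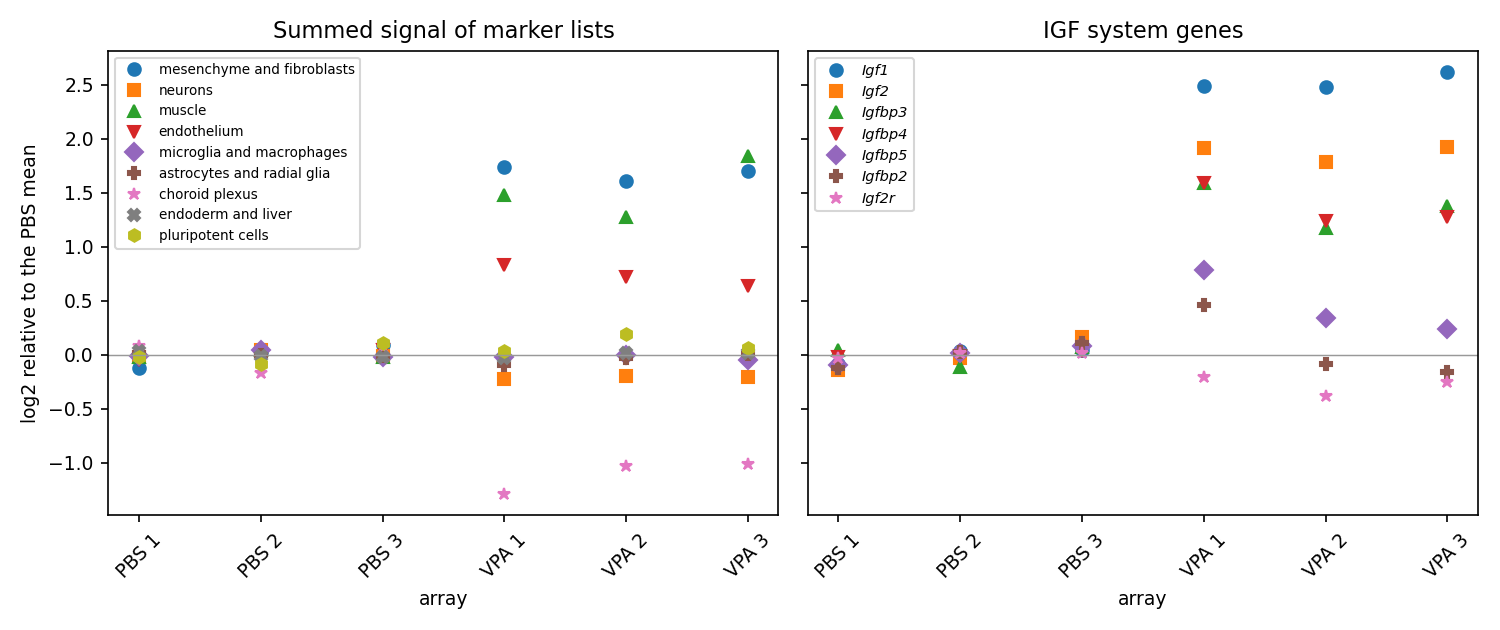
Left, summed linear signal of 9 lists of cell type markers on each array, as log2 relative to the mean of the PBS arrays; right, the signal of 7 IGF system genes on the same scale. Mesenchyme, muscle and endothelial sums are higher on all 3 VPA arrays, as are Igf1, Igf2, Igfbp3, Igfbp4 and Igfbp5. The choroid plexus sum is lower, a difference that lies mostly in Otx2 and Ttr.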

How the data were processed

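The authors deposited a log2 value for every probe set on each of 6 arrays. Base 2 was inferred from their range of 2.5 to 13.89. How probe signals were summarized and scaled is "not given in the sources used here". The submitters' processing notes list Partek 6.5 and mm9 without a role. The array medians were nearly equal, so each change is relative to other genes. Of 35556 probe sets 21789 had 1 gene symbol in GEO's platform annotation, 1621 several and 12146 none; symbols were updated by Entrez ID for 21698. The brightest probe set stood for a gene, giving 19938 genes.

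VPA was compared with PBS by limma 3.58.1 (R 4.3.3; lmFit, eBayes, no covariates) with Benjamini-Hochberg adjustment over all genes and a threshold of 0.05. The fit was tested on simulated data. The number of arrays limits the precision: an exact permutation test of 3 against 3 cannot go below 0.1. Members and lists were chosen with earlier results of these data known. Genes named by rule are the members and up to 5 called genes of largest change per list, or the 2 of smallest p. The rule also names the nearest measured neighbours of Igf2, Igf2r and the binding protein genes, and the 5 nearest profiles. Other genes named fall outside this rule, and only some are marked where they appear. Igf1os, Ins2 and the single cell type markers are among those not marked. A gene that shared all its probe sets, such as Insl3, was not used. Alternatives covered normalization, filters, variance model, array weights, replicate number, probe sets, threshold and each array in turn.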

Additional observations from a re-analysis of the deposited data

How the results depend on the processing

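Over 14 alternatives (12 for Igfbp6, which the filters on dim genes left out), the change of Igf1 lay between 2.48 and 2.57, that of Igf2 between 1.80 and 1.96, Igfbp3 between 1.26 and 1.48, Igfbp4 between 1.26 and 1.44, Igfbp5 between 0.29 and 0.56 Igf2r between -0.33 and -0.23 and Igf1r between -0.22 and -0.07. Igfbp2 alone among the members changed sign, from -0.13 to 0.19. Leaving out 1 array at a time gave 1778 (without PBS 2) to 3949 genes higher and 2058 (without PBS 2) to 4224 lower, and 20 to 25 pathway genes higher and 3 to 12 lower. With array weights 4342 genes were higher, and 10 pathway genes were lower; under filters at the 30th percentile and at the olfactory receptor level 8 of 75 were lower. At an adjusted p under 0.01, 1579 genes were higher and 1791 lower, and 3 pathway genes were lower. The difference of Pappa was 0.0231 without VPA replicate 3 and -0.0635 without VPA replicate 1. The cause of these shifts was not tested, apart from the stricter threshold and the fewer genes under the filters. Over all genes the shared replicate numbers gave no sign of paired arrays: deviations of same-numbered arrays correlated at -0.02, -0.008 and 0.02. Pairing that touches only some genes would not be seen this way. With the replicate number as a block, 2592 genes were higher and 2818 lower, and 22 and 5 pathway genes; of the genes named, the calls of Insr (adjusted p = 0.0508), Synm (0.0535) and Slc22a2 (0.0657) were lost. Signals near the background level limit what can be said of Igfbp6, Igfbp7 and Insl6.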
